A study of Mus musculus with 26 samples.

Results

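Actins are the proteins that build the thin filaments of muscle and the filament network of other cells. The genes followed here are Acta1, the alpha actin of skeletal muscle, Actc1, the alpha actin of heart muscle, and Actb, the beta actin of the cytoplasm. They are 3 of the 6137 genes that single-gene probe sets of the arrays name, and every probe set annotated to one of them was taken, apart from the manufacturer's control probe sets. This gave 6 of 13069 probe sets: 1 for Acta1 and 3 for Actb on the A array, and 2 for Actc1 on the B array. The genes were chosen with their values in these hearts known. Acta1 was chosen for its low signal in null hearts and Actb for its low signal in later-numbered hearts, so those values are described below without a test.

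The developing heart muscle makes both striated alpha actins, with Acta1 active in the embryo before the cardiac form dominates in the adult mouse. Beta actin is made by nearly all cells and turns over with cell shape and movement. Both alpha actin genes are known targets of serum response factor, which binds the sequence element called the CArG box, and Nkx2.5 is known to act together with that factor on the Actc1 promoter.

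Total RNA of whole hearts of mouse embryos at embryonic day 12.5 was run on an A and a B oligonucleotide array for each of 13 numbered samples, 26 arrays in all. The line carries a deletion of the NK2-specific domain in Nkx2.5, a homeodomain factor of the heart. Hearts 1, 2, 7, 9 and N1 were wild type for it (n = 5), hearts 5, 6, 12 and N2 carried it on 1 allele (heterozygous, n = 4), and hearts 3, 4, 8 and N3 on both (null, n = 4). The labels state no strain, litter or sex. They say nothing on pooling, so each numbered sample is called a heart here, and p-values reflect the spread among these hearts alone. The labels do not say whether the deletion was limited to some cell types. Hearts numbered 1 to 6, 7 to 12 and N are called lots, a grouping by number that the labels do not name as a batch, and each lot held all 3 genotypes.

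Values are array signals on a linear scale, already background-subtracted and scaled by the authors, and differences are log2 values. The number of arrays limits the precision. The 3 A arrays of hearts 1, 6 and N2 were 62.5% to 81.3% blank and held no Acta1 or Actb value, which left 4 wild-type, 2 heterozygous and 4 null hearts for both genes. On B, the 99th percentile of signal, taken over complete probe sets, ranged from 27125 to 34308 on the arrays of hearts 7, 9 and 12 and 47108 to 77005 on the other 10, so results on Actc1 are given with and without those 3 arrays. Heart muscle markers bore out the labelled tissue. All 8 such genes on the arrays were above the floor in most hearts, and none of the 4 liver markers was. Of 11 skeletal muscle markers on the arrays, 3 were above the floor in most hearts, namely Tnni2, Des and Ckm, of which Des and Ckm are also made in heart muscle. The skeletal muscle factor Myog was above it in 5 of 10 hearts, and the factors Myod1 and Myf5 and the developmental myosins Myh3 and Myh8 in no heart. In whole-heart RNA, fewer cells of a type and less RNA per cell cannot be told apart.

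The promoters of the alpha actin genes are shown because both are known targets of serum response factor. They are the 250 bases before the annotated start in RefSeq's GRCm38.p6, which held promoters of Acta1 and Actc1, read 5′ to 3′ on the minus strand, and capitals mark the CArG box.
Acta1, chr8:123894776-123895025: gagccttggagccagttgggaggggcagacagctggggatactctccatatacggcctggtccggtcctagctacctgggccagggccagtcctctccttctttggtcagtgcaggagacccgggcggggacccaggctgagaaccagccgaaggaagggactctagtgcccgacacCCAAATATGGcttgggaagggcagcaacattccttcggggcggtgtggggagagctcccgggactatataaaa
Actc1, chr2:114052876-114053125: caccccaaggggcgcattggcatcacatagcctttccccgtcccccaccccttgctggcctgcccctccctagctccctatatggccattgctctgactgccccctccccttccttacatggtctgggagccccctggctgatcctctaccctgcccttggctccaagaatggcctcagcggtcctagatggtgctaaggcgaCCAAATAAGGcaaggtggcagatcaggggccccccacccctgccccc
The CArG box of Acta1 lies 73 to 64 bases before the start and that of Actc1 47 to 38 bases before it. Searched on both strands with no mismatch, a CArG box occurred in 1.47% of 32851 promoters of the same length. The letters TATAAA occur 7 to 2 bases before the Acta1 start, are absent from the Actc1 window, and were found in 12.4% of promoters. AAGTG, the core of the motif that NK2-class homeodomains bind, is in neither window and occurred in 40.7% of promoters, and the letters TATAAA can fall inside a CArG box, although the matches shown do not overlap. A match describes letters in this window only.

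Acta1 signal was lower in every null heart than in every wild-type or heterozygous heart. The gene (chr8:123891758-123894775 in GRCm38.p6) was read by m12347_s_at, a probe set of a kind that can match several transcripts. The signal was 14904.9, 14227.2, 21742.1 and 13312.9 in wild-type hearts 2, 7, 9 and N1. It was 21623.2 and 20990.5 in heterozygous hearts 5 and 12, and 9718.4, 13169.2, 9846.3 and 6399.7 in null hearts 3, 4, 8 and N3. Null heart N3 was lowest, and null heart 4 came just under wild-type heart N1. Averages were 16047 ± 3853 (SD, n = 4) in wild-type, 21307 ± 447 (n = 2) in heterozygous and 9783 ± 2764 (n = 4) in null hearts.

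**Figure D1:**
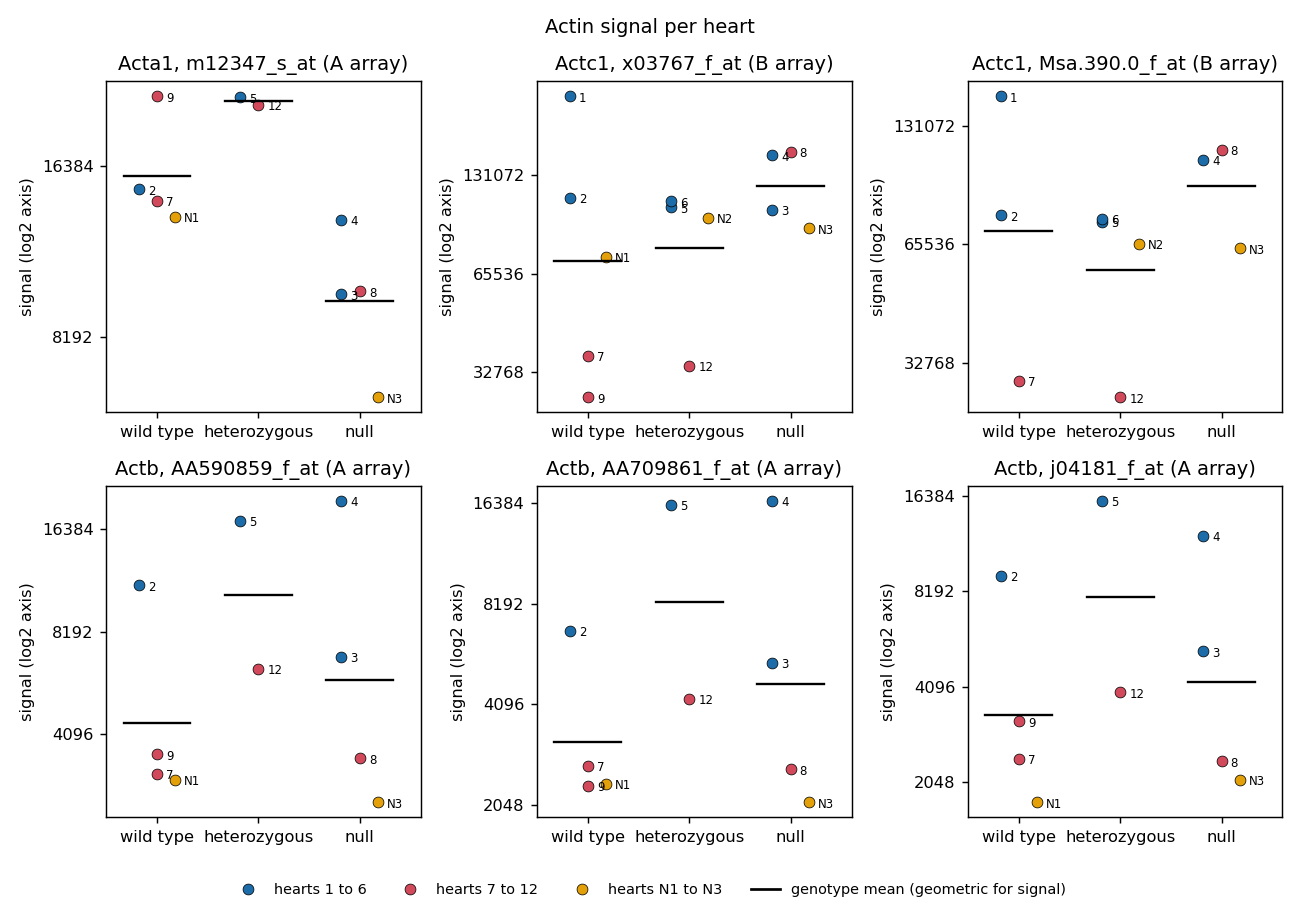
Signal of the 6 actin probe sets on a log2 axis, 1 point per heart labelled by its number, by genotype and coloured by lot, with bars at genotype means. Acta1 separates null hearts from the others, the Actb probe sets are high in the hearts numbered 1 to 6, and Actc1 is low in hearts 7, 9 and 12.

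The Acta1 difference between null and wild-type hearts was -0.73 ± 0.21 (SE), a 1.66-fold lower level. Within lots it was -0.40 for hearts 1 to 6, -0.84 for hearts 7 to 12 and -1.06 for the N hearts. Leaving out 1 heart at a time moved it between -0.89 (without null heart 4) and -0.54 (without null heart N3). Between null and heterozygous hearts the difference was -1.17 ± 0.25, a 2.25-fold lower level, with -0.93 within hearts 1 to 6 and -1.09 within hearts 7 to 12. As background, 1.2% of the 4494 probe sets tested had all null hearts below all wild-type hearts, and 3.92% had them below all heterozygous hearts. Acta1 was chosen on these contrasts, so nothing is read from its place in those shares.

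Neither heterozygous heart was low in Acta1. The level was 0.44 ± 0.25 above wild type, heart 9 overlapped both heterozygous hearts, and the difference did not pass limma's test (adjusted p = 0.981; 95% interval -0.11 to 0.98). By lot number, the level in hearts 7 to 12 and N differed from hearts 1 to 6 by -0.20 ± 0.19, with genotype in the model (adjusted p = 0.531 in limma). It was at 0.00 when only hearts 7 to 12 were set against hearts 1 to 6. With only the N hearts set against hearts 1 to 6, the difference was -0.54 ± 0.21.

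The lower Acta1 of null hearts was not seen in the control transcripts of the A arrays. The beta-actin and Gapdh control probe sets on A differed by 0.09 to 0.31 between null and wild-type hearts, with overlap. This took in 5 wild-type hearts, among them heart 1, whose A array held no Acta1 value. Against the 3′ beta-actin control probe set on the A array, the log2 ratio of Acta1 was -1.81, -1.95, -1.45 and -2.05 in wild-type hearts 2, 7, 9 and N1. It was -1.39 and -1.04 in heterozygous hearts 5 and 12, and -2.93, -2.38, -2.53 and -3.41 in null hearts 3, 4, 8 and N3. The 3 genotypes did not overlap on this scale, with the 2 heterozygous hearts highest. Against the middle beta-actin control they did overlap, with null heart 4 (control signal 41464.5) above wild-type heart 7 (51508.1). Wild-type heart 2, where that control was at 30410.3, then lay above both heterozygous hearts. Against the 5′ control the genotypes did not overlap. The log2 ratio to the 3′ control differed by -1.0 between null and wild-type hearts, with within-lot differences of -0.85, -0.83 and -1.36. It was 0.60 higher in heterozygous than in wild-type hearts. Against the 3′ control of Gapdh, a glycolytic enzyme used as a reference, null and wild-type hearts differed by -1.04, again without overlap, while wild-type heart 9 lay above heterozygous heart 5. These ratios contain Acta1, which was chosen for its values, and are given without a test.

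**Figure D2:**
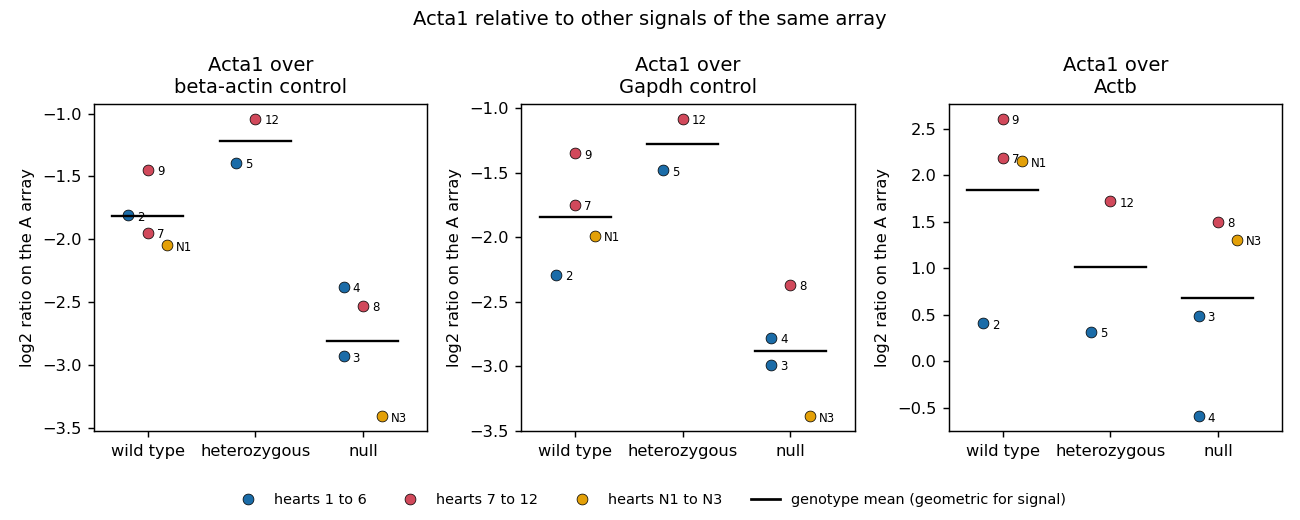
Log2 ratio of Acta1 to the 3′ beta-actin control, the 3′ Gapdh control and Actb (AA590859_f_at) on the same A array, 1 point per heart, with bars at genotype means. Null hearts lie below wild-type hearts against both controls, and the ratio to Actb follows the lots.

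Heart muscle markers did not share the lower signal of Acta1 in null hearts. All 10 of their tested probe sets were higher in null than in wild-type hearts, with a median of 0.28 beside -0.01 over all probe sets tested, and 0 of 10 were called in limma, where 0.0223% of all probe sets were. The 5 on A had a median of 0.27 and the 5 on B of 0.45, beside Gapdh controls that were higher in null hearts by 0.16 to 0.17 on A and 0.67 to 0.74 on B. Their summed signal on A, over hearts without a blank, was 277057 to 356119 in null, 216288 to 312586 in wild-type and 188123 to 253540 in heterozygous hearts. On B it was 206991 to 307736, 129980 to 323867 and 114043 to 239664. Skeletal muscle markers on A summed to 12866 to 20999 in null (n = 3), 11198 to 11962 in wild-type (n = 2) and 9444 to 12634 in heterozygous hearts (n = 2). Des, also made in heart muscle, had the highest median signal of them on A (7663). On B these markers summed to 10169 to 14952, 7780 to 23554 and 6312 to 13525. Of their 5 tested probe sets, 4 were higher in null hearts and 0 were called, including Tnni2, the troponin I of fast skeletal muscle, at 1.83 ± 0.33 (adjusted p = 0.113 in limma). Of the other marker lists, all 6 endothelial probe sets were lower in null than in wild-type hearts (median -0.26) and 7 of 8 erythroid ones were higher (median 0.38), with 0 called in both. Endothelial markers on A summed to 5114 to 8000 in null, 7142 to 8353 in wild-type and 7261 to 7576 in heterozygous hearts, and erythroid markers to 145087 to 191955, 98702 to 140852 and 67274 to 125719. On B the sums were 13036 to 31933, 17512 to 29764 and 22071 to 34797 for endothelium, and 133594 to 308245, 82653 to 447078 and 80260 to 164024 for erythroid cells. The part of cell composition in the Acta1 values was not tested.

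RNA quality, read as the log2 ratio of 3′ to 5′ control signal, ranged from -0.19 to 1.0 for beta-actin and from -0.26 to 0.10 for Gapdh on the A arrays. The beta-actin ratio differed by 0.14 between null and wild-type hearts and the Gapdh ratio by 0.01, with overlap in both. The Gapdh ratio was 0.16 higher in heterozygous than in wild-type hearts and differed by -0.14 between null and heterozygous hearts, both without overlap. Its part in the heterozygous Acta1 values was not tested.

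Actc1 did not differ between genotypes beyond the spread of hearts. The gene (chr2:114047282-114052875) was read by x03767_f_at and by a probe set whose name begins with Msa, called the Msa probe set here. Both carry the suffix that marks probes shared between relatives within a gene family. By x03767_f_at the signal was 229274.2, 111742.1, 36779.1, 27375.7 and 73894.0 in wild-type hearts 1, 2, 7, 9 and N1. It was 104531.0, 109079.5, 34277.0 and 97128.3 in heterozygous hearts 5, 6, 12 and N2, and 102625.4, 151205.8, 154890.5 and 90177.6 in null hearts 3, 4, 8 and N3. Wild-type hearts spanned the whole range of the null and heterozygous hearts, and hearts 7, 9 and 12 were the 3 lowest. By the Msa probe set, blank in wild-type hearts 9 and N1 and null heart 3, the wild-type signal was 155646.5, 77524.5 and 29512.5 in hearts 1, 2 and 7. It was 74649.6, 75952.7, 26808.9 and 65826.2 in heterozygous hearts 5, 6, 12 and N2, and 107188.2, 113839.7 and 64049.4 in null hearts 4, 8 and N3. Hearts 7 and 12 were again lowest.

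Null minus wild type was 0.76 ± 0.55 by x03767_f_at and 0.38 ± 0.58 by the Msa probe set (adjusted p = 0.9999 for both in limma). The 95% intervals reached from -0.40 to 1.92 and from -0.88 to 1.63. Within lots the x03767_f_at difference was -0.36, 2.29 and 0.29, largest in the lot of hearts 7 to 12. Heterozygous minus wild type was 0.13 ± 0.55 and -0.33 ± 0.54 (adjusted p = 0.995 and 0.990), and null minus heterozygous was 0.63 ± 0.58 and 0.71 ± 0.54 (adjusted p = 0.886 and 0.864). Without the B arrays of hearts 7, 9 and 12, a setting chosen after seeing the data, null minus wild type was -0.03 and -0.25, heterozygous minus wild type -0.26 and -0.61, and null minus heterozygous 0.23 and 0.36.

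Signals of other transcripts moved with Actc1 on the B arrays. The 3′ beta-actin control on B stood at 34533, 23395 and 30883 in hearts 7, 9 and 12, against 54041 to 134072 in the other 10 hearts. Across the 13 hearts the signal of x03767_f_at spanned 8.38-fold (SD of log2 0.91), while its ratio to that control spanned 2.07-fold (SD 0.36). On the ratio scale null and wild-type hearts differed by -0.07, heterozygous and wild-type hearts by -0.09, and null and heterozygous hearts by 0.02, with overlap in every case. The Gapdh controls on B differed between null and wild-type hearts by 0.67 to 0.74, beside the 0.76 of Actc1.

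**Figure D3:**
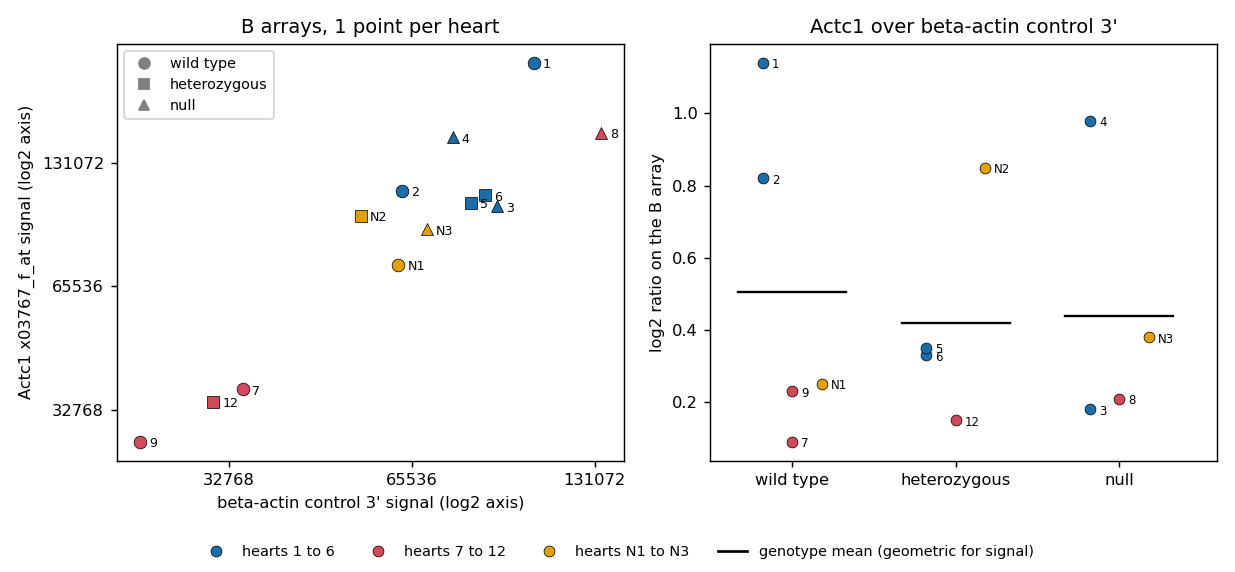
Left, Actc1 (x03767_f_at) signal against the 3′ beta-actin control signal of the same B array, both on log2 axes, 1 point per heart. Right, their log2 ratio by genotype with bars at the means. Hearts 7, 9 and 12 are low in both signals, and the genotype means of the ratio lie within 0.09 of each other.

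The Actc1 level in later-numbered minus early-numbered hearts was -1.02 ± 0.36 (x03767_f_at) and -1.0 ± 0.35 (the Msa probe set), and neither passed limma's test (adjusted p = 0.097 and 0.106). Leaving out heterozygous heart N2 brought both past the threshold (-1.21, adjusted p = 0.0488, and -1.24, adjusted p = 0.0479). Without the B arrays of hearts 7, 9 and 12 the differences were -0.39 and -0.26, and after quantile scaling -0.29 and -0.47. The ratio to the beta-actin control differed by -0.33 between these hearts, with overlap. Heart muscle markers were lower in the later hearts in all 10 tested probe sets, 3 of them called (median -0.35), where limma called 3.27% of all probe sets lower. Their part in the Actc1 values was not tested.

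Actb differed widely between hearts, with an SD of log2 signal of 1.09 to 1.13 over its 3 probe sets. The gene (chr5:142903115-142907976) was read on A by AA590859_f_at, AA709861_f_at and j04181_f_at, all of the family-matching kind. By AA590859_f_at the signal was 11204.1, 17338.6, 6899.7 and 19856.7 in hearts 2 (wild type), 5 (heterozygous), 3 and 4 (null). Among later hearts it was 3127.0, 3573.2, 6362.8 and 3475.0 in hearts 7 and 9 (wild type), 12 (heterozygous) and 8 (null), and 3007.1 and 2577.0 in hearts N1 (wild type) and N3 (null). Each of the 4 early-numbered hearts was above each of the 6 later ones, and null heart 3 and heterozygous heart 12 were closest to the gap.

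The other Actb probe sets gave the same order of lots. AA709861_f_at stood at 6806.8, 16180.0, 5467.0 and 16614.8 in hearts 2, 5, 3 and 4, and at 2683.4, 2338.9, 4257.0, 2620.5, 2369.7 and 2088.0 in hearts 7, 9, 12, 8, N1 and N3. For j04181_f_at the values were 9170.2, 15764.2, 5291.7 and 12228.0 in hearts 2, 5, 3 and 4, and 2430.5, 3182.9, 3927.2, 2380.1, 1768.8 and 2086.9 in hearts 7, 9, 12, 8, N1 and N3. Neither probe set overlapped between the lots.

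The fitted differences of later from early-numbered hearts were -1.79 ± 0.24, -1.82 ± 0.25 and -1.91 ± 0.23 for AA590859_f_at, AA709861_f_at and j04181_f_at. As background, 3.63% of tested probe sets had all later hearts below all early ones. Within wild-type, heterozygous and null hearts, the AA590859_f_at difference was -1.80, -1.45 and -1.97. The lot contrast chose Actb, so these values are a description. Markers of fibroblasts and matrix were higher in the later hearts in 13 of 14 tested probe sets (median 0.46 beside 0.01 over all probe sets tested). Of these 14, 4 were called higher in limma, where 3.87% of all probe sets were. The part of these markers in the Actb values was not tested.

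Control probe sets for the same transcript did not show a difference of that size. The A array carries control probe sets for the 3′, middle and 5′ parts of beta-actin, and their means over 13 hearts differed between later and early-numbered hearts by -0.23, -0.04 and -0.28, with overlap. The same plain difference of means was -1.86, -1.92 and -1.95 for the Actb probe sets. By genotype, the 3′, middle and 5′ controls differed by 0.19, 0.42 and 0.01 in wild-type hearts. They differed by -0.71, -0.84 and -0.84 in heterozygous hearts and by -0.19, 0.17 and -0.09 in null hearts. These differences include hearts 1, 6 and N2, which held no Actb value. In heterozygous hearts 5 and 12, which did, the 3′ control was at 56796.9 and 43307.7. The middle control was at 48039.9 and 44757.8 there, and the 5′ control at 52185.1 and 41143.8. The 3′ control spanned 2.03-fold (42714 to 86638) over 13 hearts, while the 3 Actb probe sets spanned 7.71-fold to 8.91-fold over 10. On the B arrays of the same hearts the 3′ control differed by -0.73, with overlap. The ratio of AA590859_f_at to the 3′ control on A differed by -1.70 between later and early hearts, and null heart 3 at -3.42 then lay below heterozygous heart 12 at -2.77. Probe sets annotated to Actb and control probe sets for its transcript thus gave different values for the same RNA, and which of them follows the Actb transcript was not tested.

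**Figure D4:**
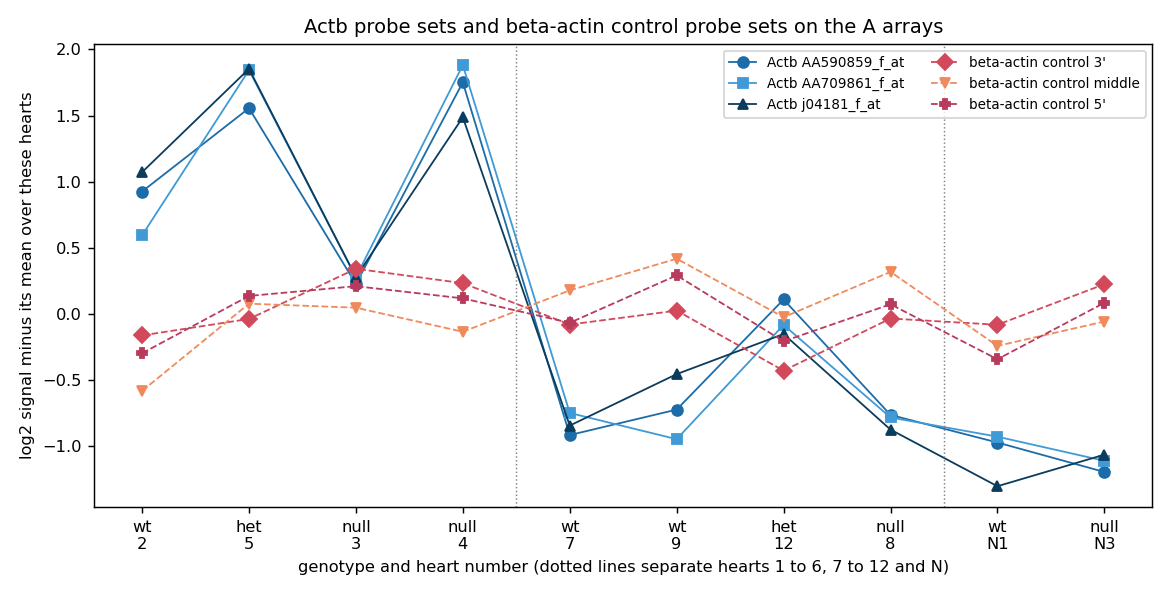
Log2 signal of the 3 Actb probe sets (solid lines) and the 3 beta-actin control probe sets (dashed) on the A arrays, each minus its own mean over the 10 hearts plotted. The Actb probe sets are high in hearts 2, 5 and 4 and drop in the later-numbered hearts, while the control probe sets show no such drop.

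Genotype comparisons of Actb were wide and passed no test. Null minus wild type was 0.43 ± 0.58, 0.57 ± 0.59 and 0.34 ± 0.60 for AA590859_f_at, AA709861_f_at and j04181_f_at (adjusted p = 0.9999 in limma). The 2 heterozygous hearts gave 1.25 ± 0.70, 1.39 ± 0.72 and 1.23 ± 0.74 over wild type (adjusted p = 0.981 in limma). The lots were unevenly filled, with 1 of 4 wild-type, 1 of 2 heterozygous and 2 of 4 null hearts early-numbered. With lots as a block, heterozygous minus wild type was 0.75, 0.90 and 0.69, and null minus wild type 0.00, 0.13 and -0.11. Null minus heterozygous was -0.83 ± 0.70, -0.81 ± 0.72 and -0.89 ± 0.74 (adjusted p = 0.879, 0.881 and 0.875). Without null heart 4 the null minus wild-type differences were -0.16, -0.03 and -0.17.

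**Figure D5:**
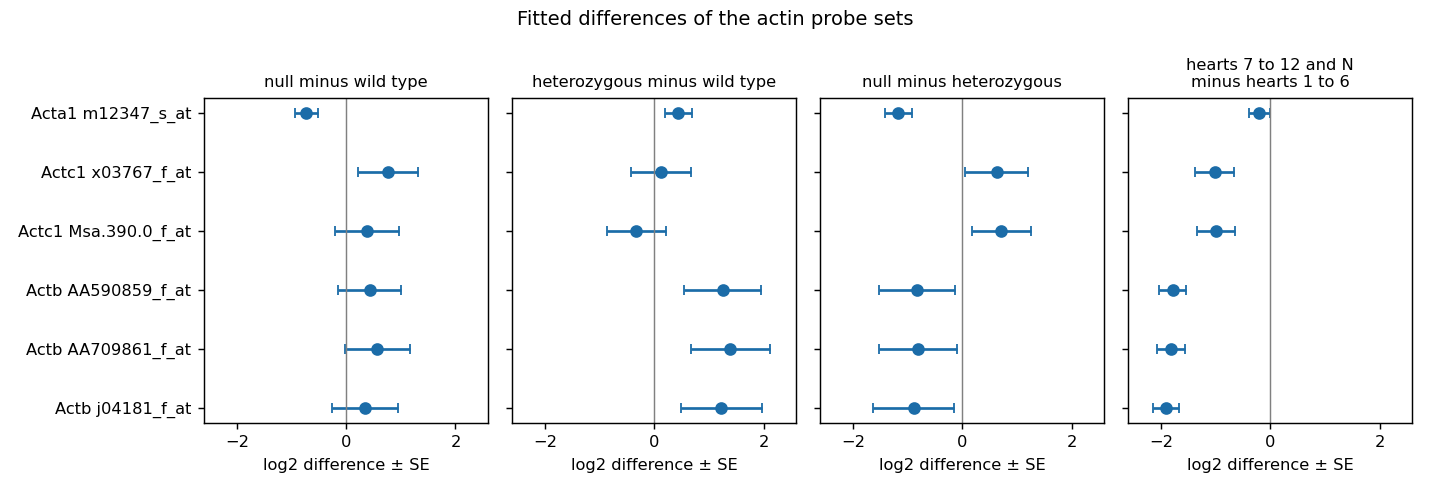
Fitted log2 differences with their SE for the 6 actin probe sets in the 3 genotype contrasts and between lots. Acta1 has the narrowest errors between genotypes and is negative in both null contrasts, and the 3 Actb probe sets are near -1.8 to -1.9 between lots.

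Over the members, limma called 0 of the values tested between genotypes. The share of all 4494 probe sets called was 0.0223% between null and wild type, 0% between heterozygous and wild type and 0% between null and heterozygous. At an unadjusted p under 0.05 there were 108, 152 and 260 probe sets in these contrasts. Between lots, 7.14% of all probe sets were called (321, of which 174 higher and 147 lower in later hearts), and neither Acta1 nor Actc1 was among them.

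The balance of the actins within a heart was read as log2 ratios of probe set signals, which describe changes and not the relative amounts of the proteins or transcripts. Acta1 over Actb on the A array was 0.41, 0.32, 0.49 and -0.59 in early-numbered hearts 2, 5, 3 and 4. In the later hearts 7, 9, 12, 8, N1 and N3 it was 2.19, 2.61, 1.72, 1.5, 2.15 and 1.31. The lots did not overlap and differed by 1.75, while null and wild-type hearts differed by -1.16 with overlap (-0.73 without null heart 4 and -1.63 without wild-type heart 2). Within lots the difference of null from wild type was -0.46, -0.89 and -0.83.

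Acta1 over Actc1 sets A against B arrays, which were scaled separately. It was -2.91, -1.37, -0.33 and -2.47 in wild-type hearts 2, 7, 9 and N1, -2.27 and -0.71 in heterozygous hearts 5 and 12, and -3.40, -3.52, -3.98 and -3.82 in null hearts 3, 4, 8 and N3. Null hearts lay below the rest, with a difference of -1.91 from wild type, which was -0.99 without the B arrays of hearts 7, 9 and 12. Actc1 over Actb was 0.75 higher in null than in wild-type hearts with overlap, but at -0.01 after quantile scaling and 0.39 without those 3 arrays. It was 1.85 higher in null than in the 2 heterozygous hearts with a value, and 1.15 after quantile scaling. The difference was 0.82 within hearts 1 to 6 and 3.05 within hearts 7 to 12. Without the 3 arrays it was 1.77, which rests on heterozygous heart 5 alone.

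Among the other actins, none passed the test in any contrast. Of 9 such genes listed, 5 were tested with 6 probe sets, and limma called 0 in each of the 4 contrasts. Between null and wild type their median was 0.08, with Acta2, the smooth muscle alpha actin, at 0.40 ± 0.25, and Actg2, the gamma actin of smooth muscle, at 0.16 ± 0.17. Between lots Acta2 was at -0.35 ± 0.18, and Actg1, the cytoplasmic gamma actin, at -0.13 ± 0.17 by its B probe set. As plain differences of means between later and early hearts, the A probe set of Actg1 was at -0.06, beside the -1.86 of the Actb probe set AA590859_f_at.

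Genes of actin assembly and turnover gave 24 tested probe sets for 17 genes, of which 0 were called in any contrast. In null hearts their median was 0.02, and the smallest p belonged to Tmsb10, which binds actin monomers, at 0.42 ± 0.14 (adjusted p = 0.9999 in limma). Between lots the median was -0.12, with the filament-membrane linker Msn at -0.72 ± 0.22 (adjusted p = 0.0736). The filament crosslinkers and thin filament genes gave 19 probe sets for 15 genes. Between null and wild type 8 were higher and 11 lower (median -0.18), and 0 were called. The smallest p-values belonged to Tnni2 at 1.83 ± 0.33, Actn4, a non-muscle crosslinker, at -0.95 ± 0.25, Tpm2, a tropomyosin, at -0.75 ± 0.26 and Tnnc1, the calcium-binding troponin of heart muscle, at 0.59 ± 0.26. Between lots 3 of them were called in limma, which called 3.87% of all probe sets higher and 3.27% lower in later hearts. Zyx, a focal adhesion protein, was higher in later hearts by 0.42 ± 0.10 (adjusted p = 0.0271), and Tln1, which links integrins to actin, was higher by 0.72 ± 0.20 (adjusted p = 0.0466). Tln1 averaged 2830 in later and 1275 in early hearts, the second under the floor of 1373. Tnnc1 was lower at -0.65 ± 0.15 (adjusted p = 0.0271).

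Known targets of serum response factor gave 9 probe sets for 7 genes, and 0 were called in any contrast. The factor itself was not among the genes tested. Of the 9 probe sets, 6 were lower in null than in wild-type hearts (median -0.26). The cardiac LIM-domain gene Fhl2 was at -0.69 ± 0.28, and its relative Fhl1 at -0.64 ± 0.33 and -0.30 ± 0.15 by separate probe sets. The immediate early factor Egr1 was at -0.26 ± 0.16, with mean signals of 866 in null and 1116 in wild-type hearts beside the floor of 887. Between heterozygous and wild-type hearts 7 of 9 were lower (median -0.22), with Fhl2 at -1.17 ± 0.31 and Fhl1 at -1.16 ± 0.37 and -0.23 ± 0.16 (adjusted p = 0.981 in limma). Null minus heterozygous was 0.47 ± 0.28 for Fhl2 and 0.52 ± 0.33 for Fhl1 by the first of its probe sets. Cytoplasmic housekeeping genes, often used as references as Actb is, gave 12 probe sets for 7 genes. Between lots 11 of 12 were lower in later hearts (median -0.36 beside 0.01 over all probe sets tested). The 5 on A, the array that reads Actb, had a median of -0.14 and the 7 on B of -0.72. Of the 12, 1 was called, where limma called 3.27% of all probe sets lower. It was a probe set of the elongation factor Eef1a1 on A, at -0.82 ± 0.14 (adjusted p = 0.00739 in limma).

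The genes whose signal followed each actin most closely were found by Pearson correlation of log2 signal over hearts, as a description. For Acta1, over 10 hearts and 2409 probe sets, they were Smad2, a mediator of TGF-beta signals (0.83, and 0.92 with lot means removed), Brip1os (0.83), Cttn, a cortical actin binder (0.81), H2ax (0.79) and Cdk2ap1 (0.78). The Cttn value is from C79524_rc_s_at, which was at -0.40 ± 0.21 between null and heterozygous hearts. Another Cttn probe set on A, U03184_s_at, was at 0.59 ± 0.37 there. For Actb, over the same hearts, they were Stk25 (0.93), Eef1a1 (0.93), Klc4 (0.92, and 0.95 with lot means removed), Spats2 (0.92) and Cmpk1 (0.92). With lot means removed, Stk25, Eef1a1, Spats2 and Cmpk1 were at 0.59 to 0.73. For Actc1, over 13 hearts and 963 probe sets, they were H19 (1.0), Hba-a1 (0.99), Tpt1 (0.99), Rplp0 (0.99) and Rps12 (0.98). These 5 share the B arrays with Actc1 and all are of the family-matching kind. They include an imprinted RNA, a globin and ribosomal genes, and the points share each array's scale.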

How the data were processed

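Total RNA of 13 hearts was measured on A and B arrays. Per the deposited tables, values are intensity on a linear scale, with negatives (10.1% to 29.5% of an array's values), which shows that background or mismatch signal was taken off first; the software is not given in the sources used here. On the arrays without blanks the mean between the 2 and 98 percentiles was 1499.1 to 1499.7, a scaling by the authors. Blank cells were treated as missing.

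Values below 2 times the noise (the root mean square of the negative values of a table) were raised to that floor, 887 on A and 1373 on B, and log2 was taken. No member value lay under it. Probe sets with at least 4 arrays above the floor and at least 2 values per genotype were tested, controls left out, which left 4494. Each table was fitted over 13 hearts with limma 3.58.1 in R 4.3.3, with a variance trend, two-sided, and Benjamini-Hochberg adjustment over both tables at 0.05. Lot contrasts had genotype as a covariate. The fit was tested on simulated data. Ratios used the probe set of highest mean signal per gene and the 3′ controls. Annotation came from the platform table, updated by gene ID through RefSeq GRCm38.p6 (5551 of 5560 IDs matched on A, 1993 of 2001 on B).

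The members, gene lists and lots were chosen with earlier results of these data known. The rule for named genes took every member and control probe set, the 5 probe sets most correlated with each member, and per list the members past the threshold or up to 4 of the smallest p. The permutation tests planned for actin ratios were not run: those with Acta1 or Actb contain a gene chosen for its values, and those with Actc1 cross separately scaled tables. Alternatives were quantile scaling, other floors, no filter, mostly blank arrays or single hearts left out, lots as a block, and other lot splits.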

Additional observations from a re-analysis of the deposited data

Results flagged for a closer look

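Of 75 groups of 4 or 5 hearts checked, 10 had a heart far from the rest of its genotype by Dixon's criterion, which chance alone meets in about 1 in 20 groups. Heterozygous heart 12 was low among heterozygous hearts in Actc1, at 34277.0 (x03767_f_at) and 26808.9 (the Msa probe set), and on the same B array in the 3′ (33519.8) and middle (36106.2) Gapdh controls. Wild-type heart 2 was high among wild-type hearts in Actb, at 11204.1 (AA590859_f_at) and 6806.8 (AA709861_f_at), and in the log2 ratio of AA590859_f_at to the 3′ beta-actin control (-2.22). It was the only early-numbered wild-type heart with an Actb value. The remaining ones concerned control probe sets. Heterozygous heart N2 was low in the middle beta-actin control on A (16234.7), null heart 8 had a low beta-actin 3′ to 5′ ratio on A (0.19), and wild-type heart 1 stood apart in the Gapdh 3′ to 5′ ratio on B (0.06).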

How the results depend on the processing

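Of 268 values recomputed under settings other than leaving out a heart, 241 kept their direction and call, or moved by less than the spread. Null minus wild-type Acta1 stayed between -0.89 and -0.54 in the settings run. Called probe sets between null and wild type numbered 2 with a floor of 1 times the noise, 4 with lots as a block, and 0 without a filter, after quantile scaling, without mostly blank arrays, without the N hearts or without the B arrays of hearts 7, 9 and 12 (chosen after seeing the data). Without a filter 1 was called between heterozygous and wild type and 1 between null and heterozygous, where the lot block also gave 1. Between lots 206 were called with a floor of 4 times the noise, 6 for the N hearts against hearts 1 to 6, 6 without a filter, 143 after quantile scaling, 192 without mostly blank arrays and 181 without the 3 B arrays. Signs turned for values that passed no test. Without the 3 B arrays Actc1 was at -0.25 (the Msa probe set) and -0.03 (x03767_f_at) between null and wild type, and x03767_f_at at -0.26 between heterozygous and wild type (-0.32 without mostly blank arrays, -0.05 with lots as a block). Actb by j04181_f_at was at -0.11 between null and wild type with the block, and Acta1 at 0.00 for hearts 7 to 12 against hearts 1 to 6. Without the 3 B arrays Acta1 over Actc1 was at -0.99 between null and wild type and -0.40 between lots, and Actc1 over Actb at 1.89 between lots. Acta1 over Actc1 was at -1.36 between null and heterozygous hearts after quantile scaling. The causes were not tested. With 1 heart left out at a time, calls ranged from 0 to 3 between null and wild type and from 103 (without wild-type heart 2) to 342 between lots. Null minus wild type ranged from -0.25 to 0.95 for Actc1 by the Msa probe set and from 0.41 to 1.18 by x03767_f_at, and for Actb from -0.16 to 0.88, -0.03 to 0.97 and -0.17 to 0.82 by AA590859_f_at, AA709861_f_at and j04181_f_at. Null minus heterozygous ranged from 0.36 to 0.97 and from 0.23 to 0.79 for Actc1, and over the Actb probe sets from -1.42 to -0.42. Heterozygous minus wild-type Actc1 ranged from -0.97 to 0.23 and from -0.22 to 0.55, and the lot difference from -1.26 to -0.64 and from -1.23 to -0.73, by the Msa probe set and x03767_f_at. Without heterozygous heart 5 or 12, Acta1 and Actb could not be tested. No paired analysis was possible because the heart numbers do not recur between genotypes.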
